A study of Mus musculus with 6 samples.

Results

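The mitosis and kinetochore genes are 42 genes whose products carry a cell from the end of G2 through chromosome condensation, spindle assembly, chromosome attachment and cytokinesis. They were chosen by name as a list of mitotic genes. No measured value enters the rule, but the list was written with earlier results of these data known. Of the 42, 41 were measured here, of 18193 genes named by the array. The exception was Ccnb1, the cyclin B1 gene, which no probe set names alone. The tissue was carotid artery, collected 14 days after wire injury, an operation that strips the endothelium and is followed by growth of a neointima. The labels give C57BL/6 mice, and the study's methods give male mice of C57BL/6J background, 10 to 12 weeks old. Xist and Eif2s3y levels in NTG pools 1 and 2, given below, do not match male sex. One group was SMC-IRF9-TG mice, which carry a full-length mouse IRF9 cDNA under the smooth muscle SM22α promoter in a single transgenic line, line 4. The other was their NTG, non-transgenic, controls. Both groups were injured, and no uninjured artery was on the arrays. Each group had 3 pools of 3 to 5 vessels, and 400 ng of RNA from each pool went onto an array of its own. The pools are labelled as biological replicates without a record of the animals in each, so p-values here describe the spread from pool to pool. An artery is a mixture of cells, and in whole-tissue RNA fewer cells of a type and less RNA per cell cannot be told apart.

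In a resting artery wall most smooth muscle cells are out of the cell cycle, and after injury some of them re-enter it. Mitotic genes are transcribed late in the cycle, after S phase, and their messages are scarce in cells that do not divide. Their promoters are known for CCAAT boxes, which bind the factor NF-Y, and for a cell cycle homology element near the transcription start, through which the DREAM complex represses them in resting cells and the MuvB complex with B-MYB and FOXM1 activates them in G2.

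The promoters of 5 of these genes are shown because they carry both kinds of element and differ in the readout. Cdk1, Ccnb2, Ube2c and Cdc20 passed the test between genotypes and Plk1 did not. Each sequence runs 5′ to 3′ on the strand of the gene, from 250 bases before to 50 bases after the start, from RefSeq on GRCm38.p6. Capitals mark CCAAT and TTTGAA on either strand, the second being 1 form of the cell cycle homology element. The windows are chr10:69352863-69353162 on the minus strand for Cdk1, chr9:70421505-70421804 on the minus strand for Ccnb2, chr2:164769679-164769978 on the plus strand for Ube2c, chr4:118437294-118437593 on the minus strand for Cdc20 and chr7:122159185-122159484 on the plus strand for Plk1.
Cdk1: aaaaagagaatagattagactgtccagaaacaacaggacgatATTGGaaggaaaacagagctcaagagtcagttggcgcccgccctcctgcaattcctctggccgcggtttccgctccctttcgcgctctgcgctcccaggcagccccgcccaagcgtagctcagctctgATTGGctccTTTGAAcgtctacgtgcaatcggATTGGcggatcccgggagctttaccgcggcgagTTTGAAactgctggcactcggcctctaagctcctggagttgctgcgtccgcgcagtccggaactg
Ccnb2: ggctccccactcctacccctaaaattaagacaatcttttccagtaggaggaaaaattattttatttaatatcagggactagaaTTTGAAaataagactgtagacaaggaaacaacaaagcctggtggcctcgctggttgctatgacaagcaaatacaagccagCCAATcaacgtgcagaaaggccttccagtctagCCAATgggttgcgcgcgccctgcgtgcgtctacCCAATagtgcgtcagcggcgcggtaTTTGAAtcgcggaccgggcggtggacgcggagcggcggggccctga
Ube2c: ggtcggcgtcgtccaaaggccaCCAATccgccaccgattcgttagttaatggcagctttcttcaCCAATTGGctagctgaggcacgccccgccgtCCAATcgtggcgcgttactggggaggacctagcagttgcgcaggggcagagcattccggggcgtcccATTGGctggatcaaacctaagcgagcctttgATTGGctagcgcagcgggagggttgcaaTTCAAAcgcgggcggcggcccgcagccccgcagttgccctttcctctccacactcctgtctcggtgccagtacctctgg
Cdc20: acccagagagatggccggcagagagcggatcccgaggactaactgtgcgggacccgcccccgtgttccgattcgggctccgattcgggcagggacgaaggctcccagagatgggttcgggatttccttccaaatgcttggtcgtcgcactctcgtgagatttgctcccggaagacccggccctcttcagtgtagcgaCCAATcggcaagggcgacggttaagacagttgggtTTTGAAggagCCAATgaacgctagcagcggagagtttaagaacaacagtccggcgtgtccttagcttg
Plk1: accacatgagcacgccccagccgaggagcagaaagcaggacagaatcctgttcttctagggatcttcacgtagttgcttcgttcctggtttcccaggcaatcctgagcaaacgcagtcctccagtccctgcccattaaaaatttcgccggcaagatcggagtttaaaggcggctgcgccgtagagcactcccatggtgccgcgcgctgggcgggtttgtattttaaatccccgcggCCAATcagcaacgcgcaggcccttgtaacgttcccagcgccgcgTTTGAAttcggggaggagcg

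In Ccnb2, CCAAT boxes began 87, 54 and 21 bases before the start, and TTTGAA 167 bases before it and 4 bases after it. In Cdk1 they began 208, 80 and 48 bases before the start, with TTTGAA at 71 and 15 bases before it. Cdc20 held CCAAT at 53 and 8 bases and TTTGAA at 18 bases before the start. Ube2c held 6 CCAAT boxes, at 228, 186, 183, 155, 88 and 57 bases, and TTTGAA at 29 bases before the start. Plk1 held 1 CCAAT box at 14 bases before and TTTGAA at 30 bases after the start.

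Promoter windows of 300 bases were found for 34 of the 42 genes. The motifs searched were CCAAT on both strands, TTTGAA on both strands, and a second form of the element, TTTAAA, which reads the same on both strands. The 2 forms differ by 1 letter and were counted apart, and CCAAT boxes on opposite strands can overlap, as those at 186 and 183 bases in Ube2c do. CCAAT was in 28 of the 34 windows (82.4%), against 37.9% of 27025 promoter windows of all genes, and TTTGAA was in 26 (76.5%), against 18.1% of all. Both were in 23 (67.6%), against 7.12% of all, and 18 (52.9%) held at least 2 CCAAT boxes, against 12.2% of all. TTTAAA was in 9 (26.5%), against 13.2% of all. Of 33 TTTGAA matches, 25 lay within 50 bases of the start, in 24 genes. Of 36 pairs of neighbouring CCAAT boxes, 10 were 30 to 35 bases apart, in 9 genes. Nusap1, Tacc3 and Birc5 held neither CCAAT nor TTTGAA in the window. Both were in 11 of the 13 windows of genes that passed the test between genotypes and in 12 of the 20 windows of genes that did not. A match of letters is not a bound site, and a gene with no match in this window may hold one elsewhere.

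**Figure D1:**
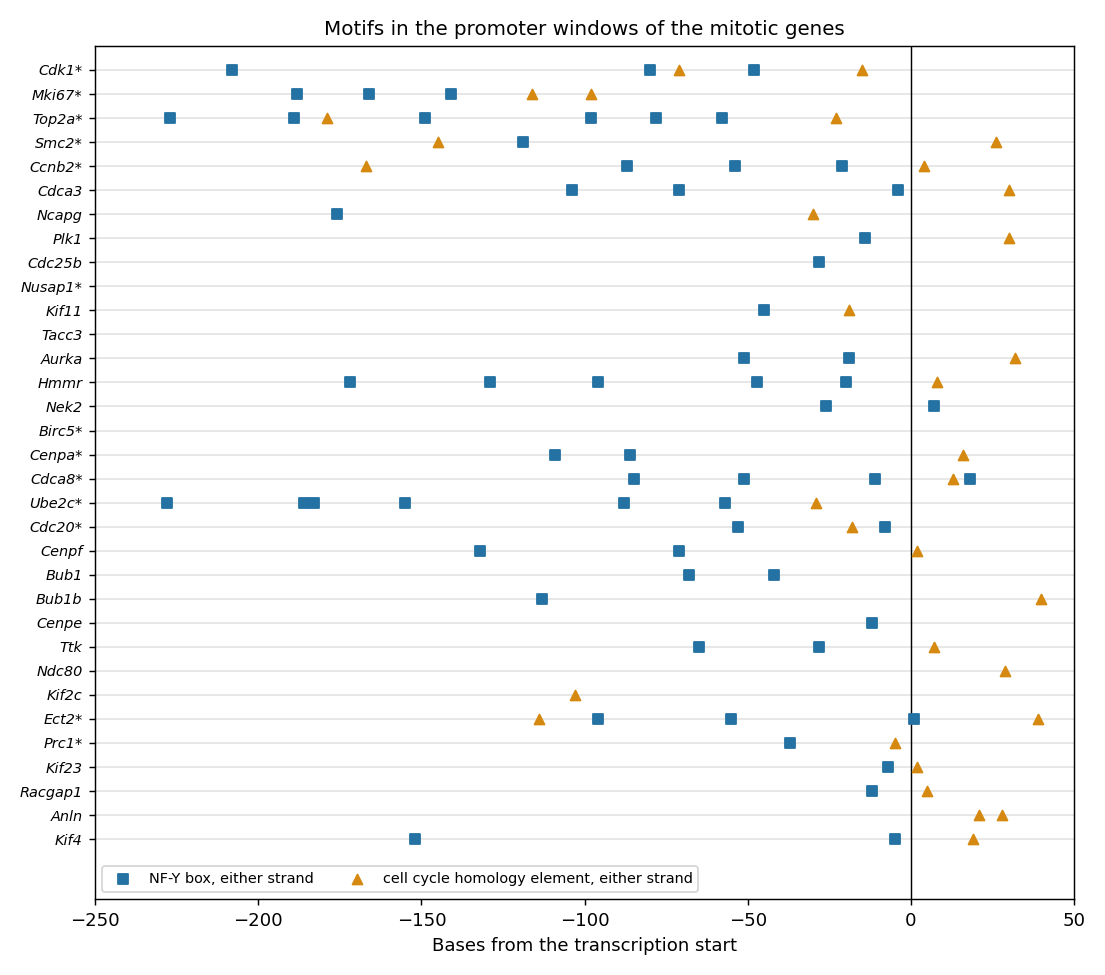
Positions of CCAAT boxes (NF-Y box, squares) and TTTGAA (cell cycle homology element, triangles), on either strand, in bases from the transcription start, for the 33 measured genes with a promoter window, in order of stage. Asterisks mark genes with an adjusted p at most 0.05, and 25 of the 33 triangles lie within 50 bases of the start.

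The deposited values are log2 levels made with RMA, and all differences below are log2 levels of SMC-IRF9-TG pools minus those of NTG pools, tested with limma over all 45037 probe sets. A gene is taken by its probe set of highest mean. Of the 41 genes, 14 rose in SMC-IRF9-TG arteries at an adjusted p of at most 0.05 and 0 fell, while 27 did not pass (34.15% higher, against 3.11% of all 18193 genes higher and 0.511% lower, and against 2.37% of all probe sets higher). At an unadjusted p under 0.05, 27 were above NTG and 1, Foxm1, below. Of all 18193 genes, 2706 were above NTG and 1784 below at that p, so 0.05 is not the share to set beside such counts. The difference was above 0 in 38 of the 41, with a median of 0.91, a ratio of 1.88, beside a median of -0.05 over all genes and -0.13 over all probe sets. The median of the 41 depended on the probe sets taken, and was 0.35 with all probe sets of a gene averaged and 0.60 with plain _at probe sets. It was 1.30 for the genes left without dim probe sets. That filter used the mean over both groups, so a gene dim in NTG could stay through its SMC-IRF9-TG level, as Birc5 did. The 1.30 is therefore not support for a larger difference. In 6 of the 41 the NTG mean lay under the lower quartile of those arrays, so the size of the difference is not known. In 27 of the 41 (65.85%) each SMC-IRF9-TG pool lay above each NTG pool, which was so for 16.1% of all genes. In 1, Foxm1, each lay below, and in 13 the groups overlapped. The smallest p that an exact permutation test can give with 3 pools against 3 is 0.1, so single genes rest on limma's pooled spread.

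The count of 14 moved with the pools that entered. Without SMC-IRF9-TG pool 1, 2 or 3 it was 8, 6 or 7, and without NTG pool 1, 2 or 3 it was 10, 16 or 15. The genes that passed in all 6 of these fits were Cdk1, Mki67, Top2a, Birc5, Ect2 and Prc1. The 2-group test named in the study's methods, which takes no spread from other probe sets, left 0 after Benjamini-Hochberg adjustment, with 21 above NTG and 1 below it at an unadjusted p under 0.05, and it called 1 probe set of all 45037.

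Several arrays stood apart in ways that the labels do not give. The 3′ minus 5′ difference of the Actb control was 7.09 in NTG pool 2 and 1.56 to 3.04 in the other 5. The methods name male mice, but Xist, which female cells transcribe, was at 9.94 and 9.50 in the first 2 NTG pools, against 2.94 to 4.08 on the remaining 4 arrays, while the Y-linked Eif2s3y was at 4.19 and 4.41 in those 2 and at 6.48 to 7.40 elsewhere. Poly-A spike-in controls averaged 4.66 in SMC-IRF9-TG pool 1, 4.22 in SMC-IRF9-TG pool 2 and between 6.95 and 10.64 elsewhere. Pairs of arrays correlated at 0.980 to 0.985 within SMC-IRF9-TG and at 0.927 to 0.955 within NTG. Leaving out the NTG pools with high Xist leaves 1 array in that group, which has no spread of its own. Leaving out the SMC-IRF9-TG pools with low poly-A controls also leaves 1 array in its group. No count of genes is therefore given for either fit alone, and whether the calls hold without those pools is not known. Both exclusions were chosen after seeing the data. Irf9 itself did not check the labels. Its probe set gave log2 levels of 5.46, 5.41 and 5.58 for the SMC-IRF9-TG arteries and 4.75, 5.43 and 5.36 for the NTG arteries, and where its probes lie relative to the cDNA is not known here.

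Markers of other cells moved with genotype. Of 11 macrophage markers 10 were higher in SMC-IRF9-TG arteries, with a median difference of 3.68 and a summed log2 level of 11.93 to 12.34 in SMC-IRF9-TG pools and 7.58 to 8.38 in NTG pools. Only Itgam lay under the lower quartile in both groups. Of 5 fibroblast markers 3 were higher, with a summed log2 level of 11.60 to 12.37 in SMC-IRF9-TG pools and 9.53 to 9.82 in NTG pools. Of 3 measured neutrophil markers 0 passed by limma, with all 3 above NTG at an unadjusted p under 0.05, and their summed log2 level was 5.35 to 10.50 in SMC-IRF9-TG pools and 4.50 to 5.35 in NTG pools. All 7 smooth muscle markers lay above the lower quartile in both groups, 0 passed by limma and 0 had an unadjusted p under 0.05, and their summed log2 level was 14.37 to 14.43 in SMC-IRF9-TG pools and 13.80 to 14.39 in NTG pools. Of 5 endothelial, 5 T cell, 3 B cell, 2 erythroid and 3 thyroid or epithelial markers 0 passed by limma, with 1 T cell marker above NTG and 1 thyroid or epithelial marker below it at an unadjusted p under 0.05. Which of these cells carried the mitotic messages was not tested.

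**Figure D2:**
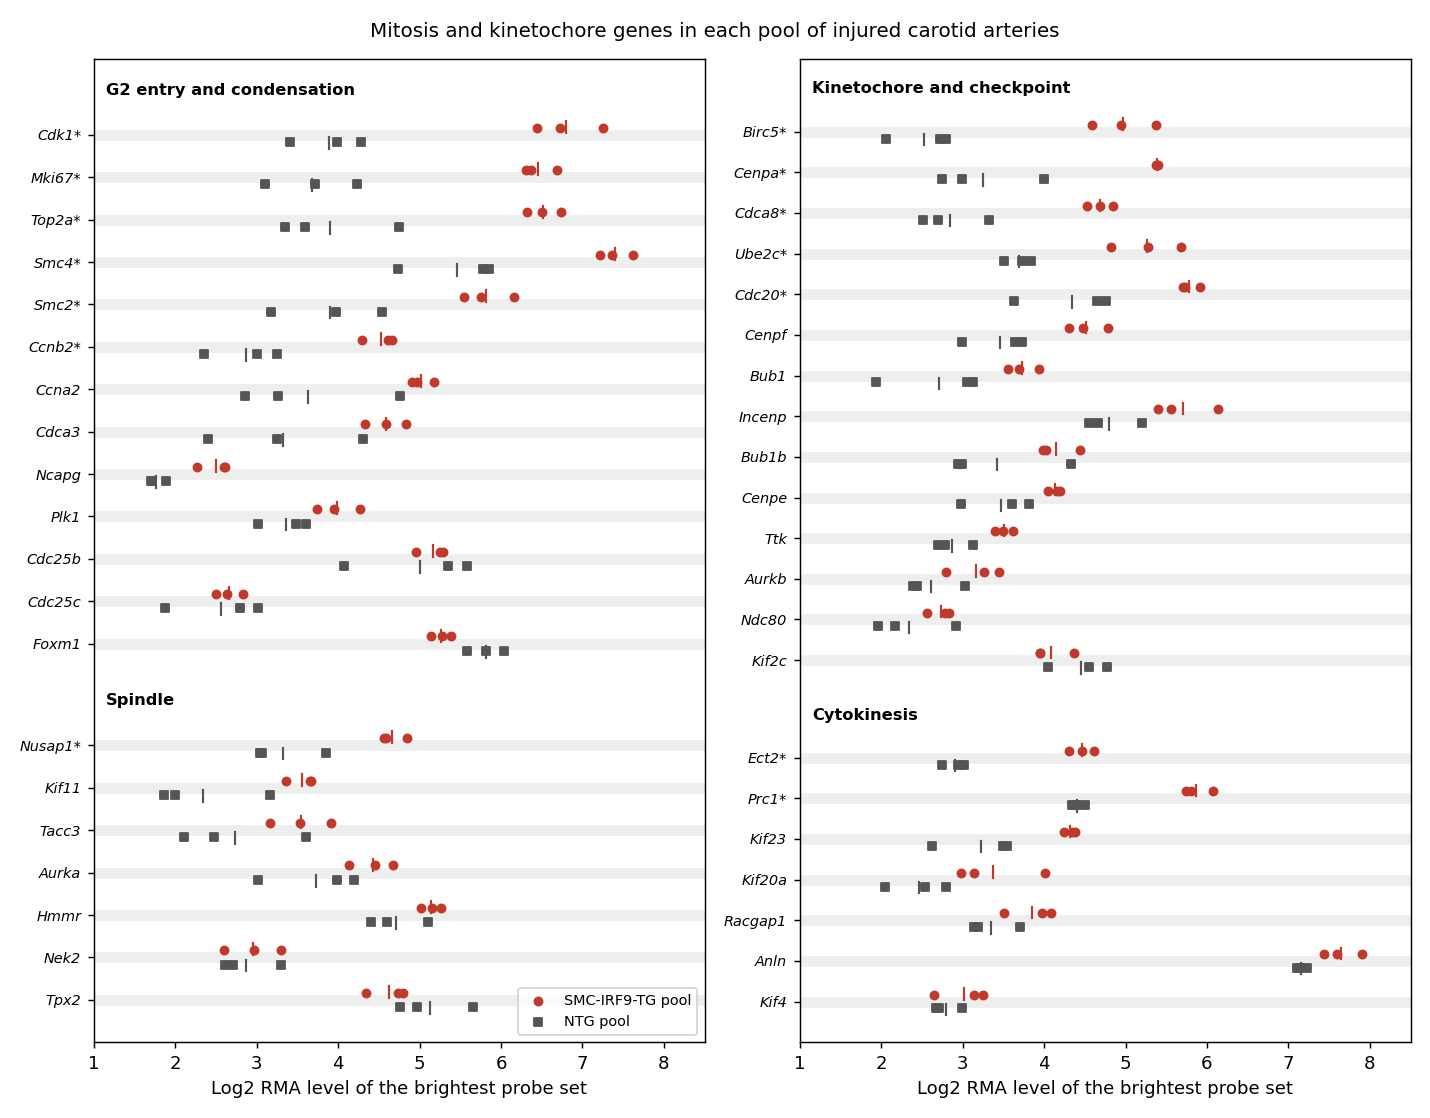
Log2 RMA level of the brightest probe set in each of the 3 SMC-IRF9-TG pools (circles) and 3 NTG pools (squares), with a tick at each group mean, for the 41 genes by stage. Asterisks mark the 14 genes with an adjusted p at most 0.05, for all of which the circles lie to the right of the squares.

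At the entry into mitosis, 6 of 13 measured genes rose (46.15%, against 3.11% of all genes), with a median difference of 1.39. In 10 (76.92%, against 16.1% of all genes) each SMC-IRF9-TG pool lay above each NTG pool. Cdk1, the kinase that drives mitotic entry, changed most of the 41. Cdk1 (probe set 1448314_at) read 6.44, 7.25 and 6.72 in SMC-IRF9-TG pools 1 to 3, in that order, and 3.41, 4.29 and 3.99 in NTG pools 1 to 3. Every SMC-IRF9-TG pool was above every NTG pool, and pool 1 was the lowest of both groups. The difference was 2.91 ± 0.30 (SE, n = 3 each; adjusted p = 0.00294), a 7.52-fold higher level. Ccnb2, the cyclin B2 partner of Cdk1 (1450920_at), read 4.30, 4.66 and 4.61 in SMC-IRF9-TG pools, against 2.35, 3.00 and 3.25 in NTG pools. The groups did not overlap, and the difference was 1.65 ± 0.26 (SE; adjusted p = 0.0174), or 3.15-fold, a call lost whenever an SMC-IRF9-TG pool was left out.

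Mki67 encodes Ki-67, the coat protein of mitotic chromosomes that is used to mark dividing cells. It (1426817_at) read 6.69, 6.31 and 6.37 in SMC-IRF9-TG pools, against 3.10, 3.71 and 4.23 in NTG pools. The SMC-IRF9-TG pools lay close together and the NTG pools were spread over more than 1 log2 unit, without overlap. The difference was 2.78 ± 0.29 (SE; adjusted p = 0.00342), or 6.85-fold.

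Top2a, the topoisomerase that disentangles sister chromatids (1454694_a_at), read 6.73, 6.31 and 6.51 in SMC-IRF9-TG pools, against 3.35, 4.75 and 3.60 in NTG pools. NTG pool 2 was the highest of its group and still below each SMC-IRF9-TG pool. The difference was 2.62 ± 0.35 (SE; adjusted p = 0.00885), or 6.15-fold. A second Top2a probe set, 1442454_at, averaged 4.33 in SMC-IRF9-TG and 4.61 in NTG pools, a difference of -0.28 (adjusted p = 0.532), and another, 1427724_at, under the lower quartile in SMC-IRF9-TG, did not pass (adjusted p = 0.325), so the rise rests on 1 of 3 probe sets.

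Smc4 and Smc2 encode the paired ATPase subunits shared by both condensin complexes. Smc4 (1452197_at) read 7.62, 7.36 and 7.21 in SMC-IRF9-TG pools, against 4.74, 5.85 and 5.78 in NTG pools, with a difference of 1.94 ± 0.31 (SE; adjusted p = 0.0177), or 3.84-fold. Smc2 (1448635_at) read 6.15, 5.76 and 5.55 in SMC-IRF9-TG pools, against 3.18, 3.98 and 4.54 in NTG pools, with a difference of 1.92 ± 0.34 (SE; adjusted p = 0.0272), or 3.78-fold. Neither gene had overlapping groups, and both calls were lost whenever an SMC-IRF9-TG pool was left out, Smc2 also without NTG pool 1. The other Smc4 probe sets differed by 1.05 and 1.49 without passing (adjusted p = 0.111 and 0.131), while 0 of the other 4 of Smc2 passed by limma (0 at an unadjusted p under 0.05), 3 of them under the lower quartile in at least 1 group. Ncapg, a non-SMC subunit of condensin I, averaged 2.49 ± 0.20 in SMC-IRF9-TG pools and 1.77 ± 0.10 in NTG pools (SD, n = 3 each; adjusted p = 0.0896). Its NTG mean lay under the lower quartile of those arrays, so the size of its difference is not known.

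Ccna2, the cyclin A2 gene that acts in S and G2 phase, had the largest difference of the entry genes that did not pass. Its brightest probe set, 1417911_at, read 4.91, 5.17 and 4.97 in SMC-IRF9-TG pools, against 2.86, 3.26 and 4.76 in NTG pools, a difference of 1.39 (adjusted p = 0.129). NTG pool 3 lay just under the SMC-IRF9-TG pools. The other Ccna2 probe set, 1417910_at, read 5.31, 5.45 and 5.53 in SMC-IRF9-TG pools, against 2.62, 3.00 and 3.76 in NTG pools. It passed with a difference of 2.30 (adjusted p = 0.00724), and with it counted 15 genes rose by any of their probe sets.

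Cdca3, a trigger of Wee1 degradation, read 4.33, 4.84 and 4.58 in SMC-IRF9-TG pools, against 3.25, 2.40 and 4.30 in NTG pools, a difference of 1.26 (adjusted p = 0.148). NTG pool 3 came close to SMC-IRF9-TG pool 1, and the other Cdca3 probe sets lay below 0 in difference. Plk1, the polo kinase that acts from mitotic entry to cytokinesis, averaged 3.98 ± 0.27 in SMC-IRF9-TG pools and 3.36 ± 0.31 in NTG pools (SD, n = 3 each). Its difference of 0.62 had a 95% interval of 0.08 to 1.16 and an adjusted p of 0.181.

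The phosphatases that activate Cdk1 did not pass. Cdc25b averaged 5.16 ± 0.18 in SMC-IRF9-TG pools and 5.00 ± 0.81 in NTG pools (SD, n = 3 each), with a difference of 0.16 (95% interval -0.69 to 1.01; adjusted p = 0.805) that was -0.03 after quantile normalization. Cdc25c read 2.50, 2.83 and 2.63 in SMC-IRF9-TG pools, against 1.88, 3.02 and 2.80 in NTG pools (adjusted p = 0.872). The NTG pools of Cdc25c lay on both sides of the SMC-IRF9-TG pools, and their mean was under the lower quartile of the arrays.

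Foxm1, the transcription factor that drives many G2 and M phase genes, was the 1 gene of the 41 with each SMC-IRF9-TG pool below each NTG pool. It read 5.28, 5.14 and 5.38 in SMC-IRF9-TG pools, against 6.03, 5.59 and 5.81 in NTG pools, a difference of -0.54 (95% interval -0.999 to -0.0864) that did not pass (adjusted p = 0.171). Of its other 3 probe sets, 2 differed by -0.23 and -0.26 and the dimmest lay under the lower quartile in both groups, and 0 of the 4 passed by limma.

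Among 7 spindle genes, 1 rose (14.29%, against 3.11% of all genes) and the median difference was 0.69. In 2 (28.57%, against 16.1% of all genes) each SMC-IRF9-TG pool lay above each NTG pool. With 7 genes these shares are coarse, and their difference from all genes was not tested. Nusap1, which bundles spindle microtubules near chromosomes (1416309_at), read 4.84, 4.59 and 4.56 in SMC-IRF9-TG pools, against 3.05, 3.85 and 3.07 in NTG pools. The groups were apart by less than 1 log2 unit at their nearest pools. The difference was 1.34 ± 0.26 (SE; adjusted p = 0.0343), or 2.54-fold. This call held in 1 of the 6 fits with a pool left out, the one without NTG pool 2, and the second Nusap1 probe set, under the lower quartile in both groups, did not pass.

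Kif11, the kinesin that pushes spindle poles apart, read 3.65, 3.66 and 3.35 in SMC-IRF9-TG pools, against 1.86, 3.16 and 2.001 in NTG pools (adjusted p = 0.0999). NTG pool 2 came within 1 log2 unit of all SMC-IRF9-TG pools, and the NTG mean was under the lower quartile, so the size is not known. Tacc3, which builds microtubule bridges in kinetochore fibres, averaged 3.54 ± 0.38 in SMC-IRF9-TG pools and 2.73 ± 0.78 in NTG pools (SD, n = 3 each; adjusted p = 0.249).

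Aurka, the spindle pole kinase, averaged 4.42 ± 0.27 in SMC-IRF9-TG pools and 3.73 ± 0.63 in NTG pools (SD, n = 3 each; adjusted p = 0.242). Tpx2, which binds and activates Aurka on the spindle, averaged 4.62 ± 0.25 in SMC-IRF9-TG pools and 5.13 ± 0.47 in NTG pools (adjusted p = 0.298). The brightest Tpx2 probe set differed by -0.50, whereas in 1428104_at each SMC-IRF9-TG pool lay above each NTG pool (adjusted p = 0.0637), by a size that is not known because its NTG mean was under the lower quartile. Hmmr, a spindle assembly factor and hyaluronan receptor, averaged 5.14 ± 0.12 in SMC-IRF9-TG pools and 4.71 ± 0.36 in NTG pools (adjusted p = 0.285). Its other probe sets went both ways without passing. The groups did not overlap in 1425815_a_at, which differed by 0.69 (adjusted p = 0.148), or in 1450157_a_at, which differed by -0.50 (adjusted p = 0.192). The remaining ones overlapped.

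Nek2, a kinase that separates centrosomes, read 2.96, 2.60 and 3.29 in SMC-IRF9-TG pools, against 3.30, 2.61 and 2.70 in NTG pools, a difference of 0.08 (95% interval -0.53 to 0.69; adjusted p = 0.869). The groups covered almost the same range. Of its other 3 probe sets, 2 differed by -0.30 and -0.74 (adjusted p = 0.566 and 0.196), and the third lay under the lower quartile in both groups. In the probe set with -0.74, 1417299_at, and in the third, each SMC-IRF9-TG pool lay below each NTG pool.

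At the kinetochore and checkpoint, 5 of 14 genes rose (35.71%, against 3.11% of all genes), with a median difference of 0.96. In 10 (71.43%, against 16.1% of all genes) each SMC-IRF9-TG pool lay above each NTG pool. The chromosomal passenger complex, which corrects wrong attachments and then moves to the midzone, has 4 subunits on the list, and 2 of them rose. Birc5, the survivin gene (1424278_a_at), read 4.94, 5.38 and 4.58 in SMC-IRF9-TG pools, against 2.79, 2.06 and 2.73 in NTG pools, a difference of 2.44 ± 0.28 (SE, n = 3 each; adjusted p = 0.00505). The groups were far apart, but the NTG mean of 2.53 ± 0.41 (SD, n = 3) lay under the lower quartile of those arrays, so the fold is not known. Cdca8, the borealin gene (1428481_s_at), read 4.69, 4.84 and 4.53 in SMC-IRF9-TG pools, against 2.70, 3.32 and 2.52 in NTG pools. It was higher by 1.84 ± 0.25 (SE; adjusted p = 0.0089), or 3.58-fold, and a second Cdca8 probe set was higher by 1.77 (adjusted p = 0.0174). The Cdca8 call was lost without SMC-IRF9-TG pool 2.

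The scaffold and the kinase of that complex did not pass. Incenp averaged 5.70 ± 0.39 in SMC-IRF9-TG pools and 4.80 ± 0.35 in NTG pools, with no overlap (SD, n = 3 each; adjusted p = 0.118). Of its other probe sets, 1423092_at differed by 0.59 without overlap (adjusted p = 0.292), and 1423093_at and 1439252_at by 0.05 and -0.04. In 1441314_at, under the lower quartile in SMC-IRF9-TG, each SMC-IRF9-TG pool lay below each NTG pool (adjusted p = 0.169). Aurkb averaged 3.17 ± 0.34 in SMC-IRF9-TG pools and 2.62 ± 0.36 in NTG pools, with overlap (adjusted p = 0.248).

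Cenpa encodes the histone H3 variant that marks the centromere. It (1450842_a_at) read 5.38, 5.39 and 5.40 in SMC-IRF9-TG pools, against 2.75, 3.997 and 2.99 in NTG pools. The SMC-IRF9-TG pools were nearly equal and lay more than 1 log2 unit above the highest NTG pool. The difference was 2.15 ± 0.31 (SE; adjusted p = 0.0126), or 4.43-fold, and the call was lost whenever an SMC-IRF9-TG pool was left out. Of the other Cenpa probe sets, 1 differed by 0.13 (adjusted p = 0.756), and the other, under the lower quartile in both groups, did not pass (adjusted p = 0.26).

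Cdc20 and Ube2c act in the anaphase-promoting complex pathway, Cdc20 as the co-activator held by the checkpoint and Ube2c as the ubiquitin-conjugating enzyme. Ube2c (1452954_at) read 4.82, 5.68 and 5.28 in SMC-IRF9-TG pools, against 3.50, 3.84 and 3.73 in NTG pools, with a difference of 1.57 ± 0.25 (SE; adjusted p = 0.0177), or 2.97-fold. Cdc20 (1439377_x_at) read 5.91, 5.71 and 5.74 in SMC-IRF9-TG pools, against 4.76, 4.65 and 3.63 in NTG pools, with a difference of 1.44 ± 0.30 (SE; adjusted p = 0.0475), or 2.71-fold. In both genes the pools did not overlap. Cdc20 passed narrowly and was lost whenever an SMC-IRF9-TG pool or NTG pool 1 was left out, and Ube2c was lost without SMC-IRF9-TG pool 2 or 3 or NTG pool 1. A second Cdc20 probe set, 1416664_at, was higher by 1.13 (adjusted p = 0.0256).

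The checkpoint kinases did not pass. Bub1, which recruits the checkpoint to kinetochores, read 3.94, 3.69 and 3.56 in SMC-IRF9-TG pools, against 1.93, 3.13 and 3.06 in NTG pools, a difference of 1.02 (adjusted p = 0.134). Ttk, the Mps1 kinase at the head of the checkpoint, averaged 3.51 ± 0.11 in SMC-IRF9-TG pools and 2.87 ± 0.23 in NTG pools (SD, n = 3 each; adjusted p = 0.13). Bub1b, the BubR1 gene, averaged 4.15 ± 0.25 in SMC-IRF9-TG pools and 3.42 ± 0.79 in NTG pools (adjusted p = 0.276). Bub1 and Ttk had no overlap between genotypes, whereas NTG pool 2 of Bub1b lay among the SMC-IRF9-TG pools. The second Bub1 probe set lay under the lower quartile in both groups and did not pass.

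The corona and microtubule-binding genes did not pass either. Cenpf, a large corona protein, read 4.78, 4.47 and 4.30 in SMC-IRF9-TG pools, against 3.64, 3.00 and 3.73 in NTG pools, a difference of 1.06 (95% interval 0.49 to 1.64; adjusted p = 0.0682) that was the largest at this stage among genes that did not pass. Cenpe, the kinesin that brings chromosomes to the plate, averaged 4.13 ± 0.075 in SMC-IRF9-TG pools and 3.47 ± 0.43 in NTG pools (SD, n = 3 each; adjusted p = 0.171). Neither had overlapping groups. Ndc80, the main microtubule coupler, averaged 2.73 ± 0.14 in SMC-IRF9-TG pools and 2.35 ± 0.51 in NTG pools (adjusted p = 0.409), with the NTG mean under the lower quartile.

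Kif2c, a kinesin that takes microtubules apart at centromeres, read 4.37, 3.95 and 3.95 in SMC-IRF9-TG pools, against 4.56, 4.04 and 4.78 in NTG pools. The groups overlapped, and the difference was -0.37 (95% interval -0.93 to 0.19; adjusted p = 0.384). The next brightest Kif2c probe set, 1437611_x_at, differed by 0.37 without overlap and did not pass (adjusted p = 0.301). The remaining ones, 1432392_at and 1449060_at, differed by -0.53 and -0.15 (adjusted p = 0.453 and 0.749).

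Among 7 cytokinesis genes, 2 rose (28.57%, against 3.11% of all genes), and the median difference was 0.91. In 5 (71.43%, against 16.1% of all genes) each SMC-IRF9-TG pool lay above each NTG pool. Ect2, the exchange factor that turns on RhoA at the cell equator (1419513_a_at), read 4.61, 4.47 and 4.31 in SMC-IRF9-TG pools, against 2.75, 3.01 and 2.94 in NTG pools. Both groups were tight and more than 1 log2 unit apart. The difference was 1.56 ± 0.19 (SE; adjusted p = 0.00621), or 2.95-fold. Prc1, which bundles the antiparallel microtubules of the midzone (1423775_s_at), read 5.80, 5.74 and 6.07 in SMC-IRF9-TG pools, against 4.39, 4.51 and 4.34 in NTG pools. It was higher by 1.46 ± 0.19 (SE; adjusted p = 0.00787), or 2.75-fold, and its second probe set was higher by 1.37 (adjusted p = 0.0376).

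The partners of these genes did not pass. Kif23, the kinesin of the centralspindlin complex, read 4.34, 4.37 and 4.25 in SMC-IRF9-TG pools, against 3.49, 2.63 and 3.55 in NTG pools, a difference of 1.10 (adjusted p = 0.0741) without overlap. Racgap1, its partner in centralspindlin, averaged 3.85 ± 0.30 in SMC-IRF9-TG pools and 3.34 ± 0.31 in NTG pools (SD, n = 3 each; adjusted p = 0.252). The groups of Racgap1 overlapped. Kif20a, which carries passenger proteins to the midzone, averaged 3.37 ± 0.56 in SMC-IRF9-TG pools and 2.46 ± 0.38 in NTG pools (adjusted p = 0.156), the NTG mean being under the lower quartile.

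Anln, the anillin scaffold of the contractile ring, averaged 7.64 ± 0.23 in SMC-IRF9-TG pools and 7.16 ± 0.058 in NTG pools, without overlap (SD, n = 3 each; adjusted p = 0.202). Kif4, the chromosome-bound kinesin that limits midzone length, read 3.14, 2.65 and 3.26 in SMC-IRF9-TG pools, against 2.71, 3.00 and 2.67 in NTG pools. The groups overlapped, and the difference was 0.22 (95% interval -0.30 to 0.74; adjusted p = 0.564).

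**Figure D3:**
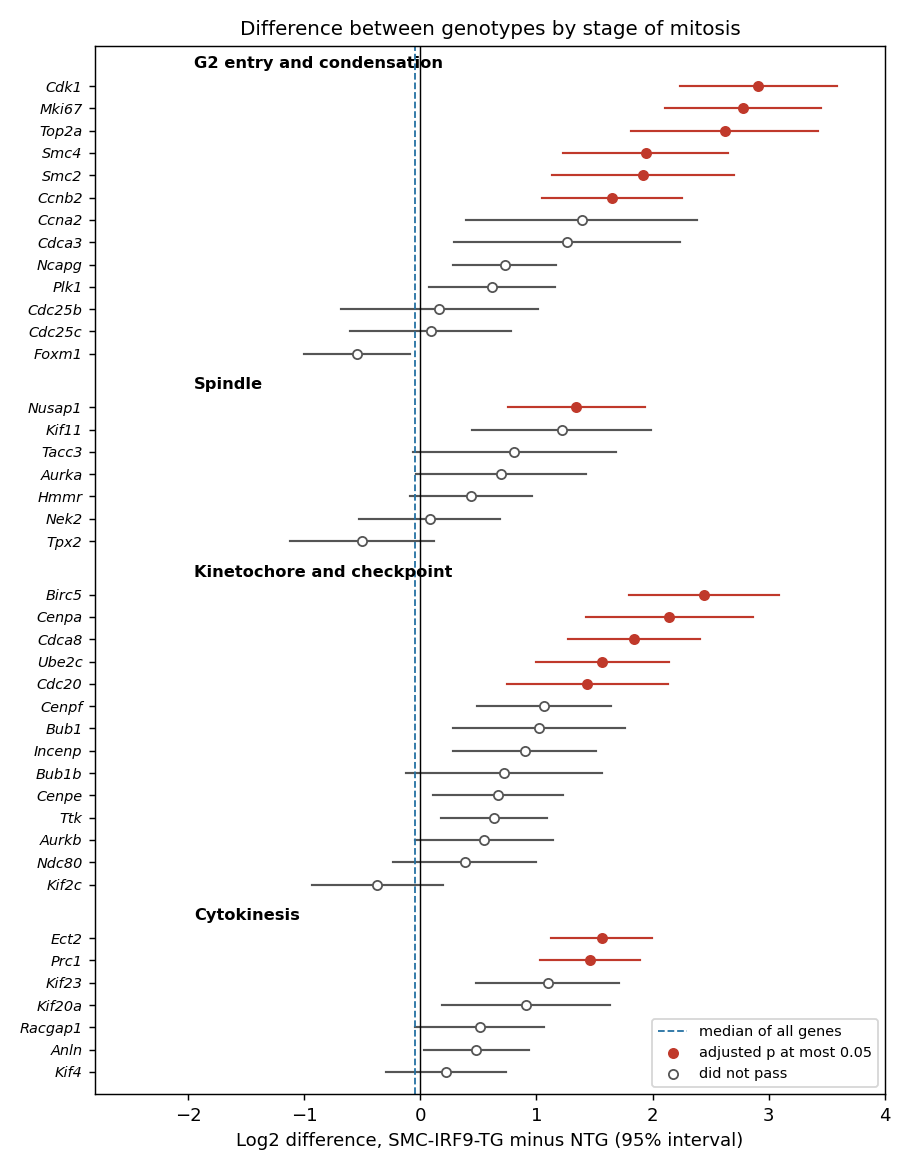
Log2 difference, SMC-IRF9-TG minus NTG, with its 95% interval from limma for the 41 genes by stage. Filled red points mark the 14 genes with an adjusted p at most 0.05, and the dashed line is the median of all genes at -0.05.

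The NTG pools were the more widely spread over the whole array. The within-group SD was the smaller in SMC-IRF9-TG for 75.94% of all probe sets and for 33 of the 41 genes, with medians of 0.20 in SMC-IRF9-TG and 0.45 in NTG pools for the 41, and of 0.17 in SMC-IRF9-TG and 0.34 in NTG pools for all probe sets. The median level of the 41 was 4.61, 4.47 and 4.56 in SMC-IRF9-TG pools 1 to 3, against 3.18, 3.48 and 3.55 in NTG pools 1 to 3. Each SMC-IRF9-TG pool had a median above each NTG pool, and NTG pool 1 was the lowest of its group in 10 of the 14 genes that passed.

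Of the 41 genes, 30 had several probe sets, 89 in all, and 11 had 1. Among the 59 probe sets other than the brightest, 4 were higher and 26 had a difference above 0, and 17 lay under the lower quartile in both groups. The next brightest probe set had the same sign in 19 of the 30 genes. Of the 8 genes that passed and had several, Cdca8, Cdc20 and Prc1 had a second that passed. With dim probe sets included, differences spanned over 1.5 log2 units between probe sets of 1 gene in 10 genes, namely Cdca3, Top2a, Smc2, Kif11, Nusap1, Cdca8, Bub1, Cenpa, Cenpf and Kif23. What part of each transcript a probe set covers was not examined.

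**Figure D4:**
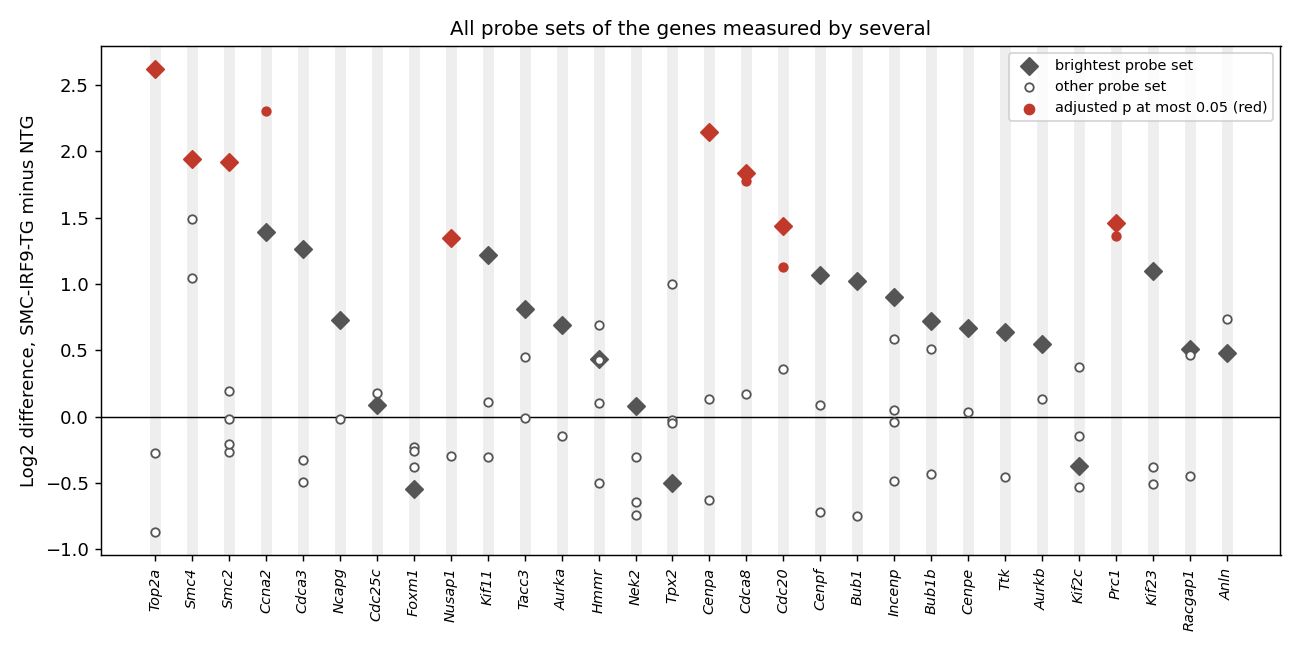
Log2 difference, SMC-IRF9-TG minus NTG, of all probe sets of the 30 genes measured by several. Diamonds are the brightest probe set of a gene and circles the others, and red marks an adjusted p at most 0.05, reached by 4 of the 59 others.

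Other genes of the mitotic machinery were taken from a longer list. Of 108 further mitotic genes written down, 106 were measured, 10 rose (9.43%, against 3.11% of all genes) and 0 fell. At an unadjusted p under 0.05, by limma, 38 were above NTG and 3 below it, against 2706 above and 1784 below of all 18193 genes. The median difference was 0.28, beside 0.91 for the 41 genes. The count of 10 was 3, 2 or 4 without SMC-IRF9-TG pool 1, 2 or 3, and 6, 13 or 12 without NTG pool 1, 2 or 3. It was 18 after centring each array, 5 with the replicate number as a block and 0 by the test named in the study's methods (35 above NTG at an unadjusted p under 0.05). The count takes each gene by its brightest probe set. Dimmer probe sets of Cks1b, Rhoa and Chmp4b, which are not among the 10, were higher by 1.84, 1.53 and 1.16 (limma, adjusted p = 0.0126, 0.0128 and 0.0222). So were those of Anapc1 and Anapc4, also not among the 10, by 1.39 and 1.26 (limma, adjusted p = 0.0336 and 0.0447). The 6 of the 10 with the largest rise were Cks2, Plk4, Cep55, Spc25, Stmn1 and Zwint. Cks2, a small subunit that binds Cdk1, read 6.88, 6.83 and 6.62 in SMC-IRF9-TG pools, against 3.86, 4.49 and 5.30 in NTG pools, 2.23 higher (adjusted p = 0.0144). Plk4, the kinase that starts centriole duplication, read 5.87, 5.34 and 5.36 in SMC-IRF9-TG pools, against 2.85, 4.03 and 3.29 in NTG pools, 2.13 higher (adjusted p = 0.0131). The groups did not overlap in either gene, and Cks2 was lost whenever an SMC-IRF9-TG pool was left out and Plk4 without SMC-IRF9-TG pool 1 or 2.

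Cep55, a midbody protein of abscission, read 4.86, 4.69 and 4.47 in SMC-IRF9-TG pools, against 2.59, 2.55 and 2.72 in NTG pools, 2.06 higher (adjusted p = 0.00191). Spc25, a partner of Ndc80, read 4.59, 4.79 and 4.75 in SMC-IRF9-TG pools, against 3.00, 2.87 and 2.47 in NTG pools, 1.93 higher (adjusted p = 0.00379). Both were without overlap and passed with each pool left out in turn. Stmn1, which destabilizes microtubules, read 7.80, 7.85 and 7.64 in SMC-IRF9-TG pools, against 5.75, 5.75 and 6.46 in NTG pools, 1.78 higher (adjusted p = 0.00919). Zwint, which links the outer kinetochore to the checkpoint, read 7.003, 7.48 and 7.20 in SMC-IRF9-TG pools, against 6.11, 5.49 and 6.02 in NTG pools, 1.36 higher (adjusted p = 0.0253). Neither gene had overlapping groups. Stmn1 was lost without SMC-IRF9-TG pool 2, and Zwint whenever an SMC-IRF9-TG pool or NTG pool 1 was left out.

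By complex, 1 of the 5 further condensin subunits rose, with a median difference of 1.27, and 1 of 3 Ndc80 partners, with a median of 1.16. In the anaphase-promoting complex 0 of 12 subunits passed by limma at their brightest probe set (median 0.30, with 4 above NTG and 1 below it at an unadjusted p under 0.05). Dimmer probe sets of its subunits Anapc1 and Anapc4 passed, as given above. For cohesin the count was 0 of 5 (median 0.20, with 2 above and 0 below), for the inner kinetochore genes named Cenp 0 of 14 (median 0.20, with 3 above and 0 below), and for further kinesins 0 of 7 (median -0.06, with 1 above and 1 below). Of all 18193 genes 3.11% were higher, so a count of 0 in lists this small is no result about a complex. At an unadjusted p under 0.05, 2706 of all genes were above NTG and 1784 below. The differences between these complexes were not tested.

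**Figure D5:**
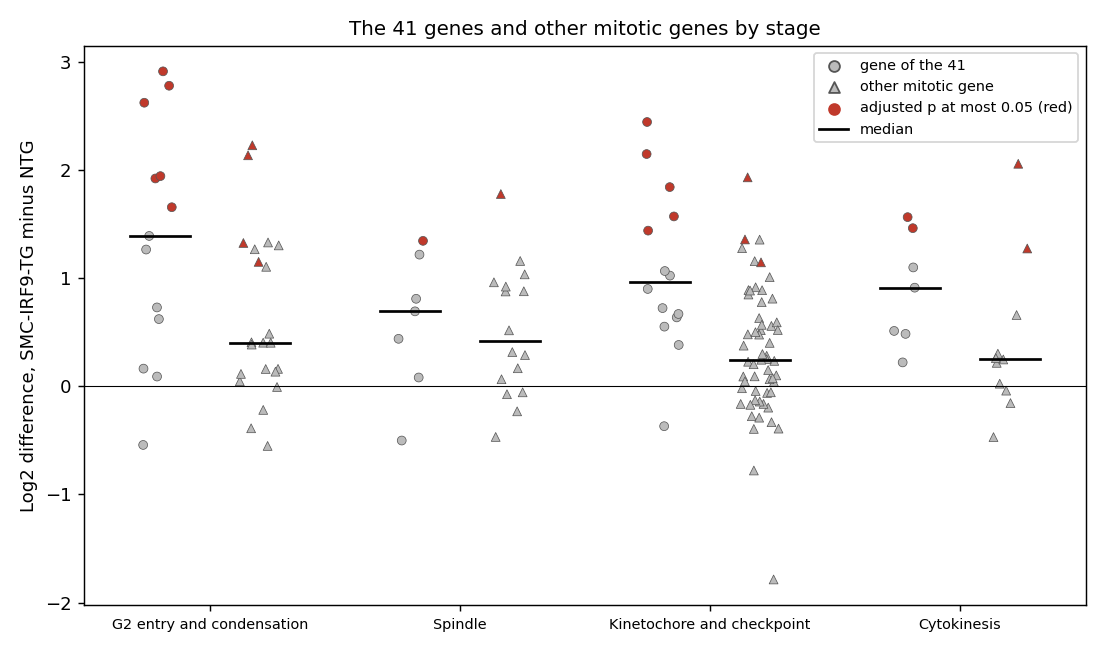
Log2 difference, SMC-IRF9-TG minus NTG, of the 41 genes (circles) and 106 other mitotic genes (triangles) by stage, with a bar at the median of each. Red marks an adjusted p at most 0.05, reached by 14 circles and 10 triangles.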

How the data were processed

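The study measured 6 injured carotid artery samples, 3 of SMC-IRF9-TG and 3 of NTG mice, grouped by the submitters' labels. The submitters' processing notes name RMA and Affymetrix Expression Console as the authors' tools for the deposited log2 levels, with versions not given in the sources used here. The RMA method subtracts background, equalizes array distributions by quantile normalization and fits 1 level per probe set, yet array medians still lay between 3.42 and 3.66. No further normalization was applied. Detection was not checked per probe set, and the number of arrays limits the precision.

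Of 45101 probe sets, 64 controls were left out and 45037 were tested with limma 3.58.1 (lmFit and eBayes, 2-sided, Benjamini-Hochberg over all, threshold 0.05) in R 4.3.3, and tables and figures were made in Python 3.11.15. In the annotation 34945 probe sets carry 1 gene name, 932 carry several and 9160 carry none, and a gene was taken by the brightest probe set that names it alone. A group mean under the mean of its arrays' lower quartiles (2.38 in SMC-IRF9-TG, 2.62 in NTG) was taken as too dim for the size of a difference. The members and lists were chosen with earlier results of these data known.

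All members are named. Values in every pool are given for members of each stage that passed, for those with the largest and smallest difference that did not, and for members whose probe sets differ by over 1.5 log2 units. Foxm1 was given in every pool after its values were seen. Of the other mitotic genes, the 6 largest that passed are given. Promoter sequences came from RefSeq tables on GRCm38.p6. Alternatives were 2 normalizations, a filter on dim probe sets, another variance prior, the methods' t-test, a replicate block, other ways to choose a probe set, a threshold of 0.01, each array left out in turn, and 2 exclusions of pools.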

Additional observations from a re-analysis of the deposited data

How the results depend on the processing

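No member fell in any fit, and none of the 636 alternative values of single members passed in the opposite direction. Of these values 543 kept their direction and side of the threshold, 71 kept the direction but no longer passed, 9 passed that had not, and 13 reversed, in 7 genes. These tallies also take in both exclusions of pools, each of which leaves a single array in a group. The main limits are 3 arrays per group, dim probe sets and pools that stand apart. The cause of the changes below was not tested.

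The 14 members higher became 16 after centring each array, with Cenpf and Kif23 added, 10 after quantile normalization, 8 of 32 with plain _at probe sets only and 7 at a threshold of 0.01. Birc5, Prc1 and Ect2 have no plain _at probe set, so they could not pass among the 32. With arrays left out in turn the count ranged from 6 to 16. The methods' t-test gave 0 members higher, and 0 at each stage and among the other mitotic genes, with 35 other mitotic genes above NTG at an unadjusted p under 0.05. No count is given for either exclusion of pools, since each leaves a single array in a group.

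Same-numbered pools did not deviate together (r from -0.15 to 0.03), and differently numbered pools gave r from -0.125 to 0.127. With 3 pools per group this cannot decide whether the numbers pair the samples. With the replicate block 11 members passed, without Smc2, Nusap1 and Cdc20, and 0 spindle members and 5 other mitotic genes.

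For entry and condensation, 3 members passed at 0.01 and 3 to 8 with arrays left out. For the kinetochore, 2 passed with plain _at probe sets and 2 at 0.01, and 1 to 6 with arrays left out. For cytokinesis, 0 passed with plain _at probe sets, but Prc1 and Ect2 have no such probe set, so that setting could not test their calls. For the spindle, 0 passed after quantile normalization, with probe sets averaged per gene and at 0.01, and 0 to 2 with arrays left out. Other mitotic genes higher were 18 after centring, 3 at 0.01 and 2 to 13 with arrays left out, and other mitotic genes lower ranged from 0 to 1. The median difference of 0.91 was 0.35 with probe sets averaged per gene and 0.60 with plain _at probe sets. It was 1.30 without dim probe sets, by a filter on the mean over both groups that can keep genes through their SMC-IRF9-TG level.

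Reversed differences were those of Cdc25b (-0.0272 after quantile normalization, and -0.30 to 0.45 with arrays left out, below 0 without NTG pool 3), Cdc25c (-0.25 to 0.32 with arrays left out, below 0 without NTG pool 1, and -0.14 without the pools with high Xist), Tpx2 (0.11 with averaged probe sets), Nek2 (-0.40 with averaged probe sets, -0.74 with plain _at probe sets, and -0.0901 to 0.30 with arrays left out, below 0 without SMC-IRF9-TG pool 3 and without NTG pool 2 or 3, at -0.0502 and -0.0038), and, with plain _at probe sets, Cdca3 (-0.33), Top2a (-0.28) and Tacc3 (-0.0089).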

Other observations

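Pttg1, the securin gene that holds separase until anaphase, had the largest difference below 0 of the other mitotic genes and was singled out after its values were seen. Its log2 levels were 7.001, 7.35 and 9.27 for the SMC-IRF9-TG pools, against 9.40, 9.92 and 9.66 for the NTG pools, a difference of -1.79 that did not pass (limma, adjusted p = 0.112). SMC-IRF9-TG pool 3 came close to the NTG pools and the other SMC-IRF9-TG pools lay more than 1 log2 unit lower.

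Among the further condensin subunits, Ncapg2 rose by 1.32 (adjusted p = 0.0386), while Ncapd2 differed by 1.33 and Ncaph by 1.27 without passing (adjusted p = 0.0683 for both). Shcbp1, Pbk and Trip13 were the other mitotic genes that rose beside those described above, and each of these 3 and Ncapg2 was lost whenever an SMC-IRF9-TG pool was left out.

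The NTG arrays held values repeated across many probe sets. Values shared by at least 100 probe sets made up 0% of each SMC-IRF9-TG array and 5.05%, 5.13% and 3.92% of NTG arrays 1, 2 and 3. The most repeated value occurred 76 to 97 times in the SMC-IRF9-TG arrays and 522 times in NTG array 2. Of the 41 mitotic genes, 3, 5 and 0 were at such a value in NTG pools 1, 2 and 3, and their part in the results was not tested.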
